A study of Mus musculus with 6 samples.

Results

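The genes described here are those of glutathione transferases and antioxidant defence in GC1-Spg cells, a mouse spermatogonial line (spermatogonia divide by mitosis in the testis and give rise to sperm) that is established in culture and was immortalised with a viral large T antigen. The set holds 42 genes named by function, and its members are the probe sets that the array's probe table pairs with exactly 1 of these symbols, 73 of 45037 probe sets on the array that are not controls. They represent 40 of the 42 genes. Prdx1 and Prdx6 had no probe set of their own. Of the 73, 71 probe sets of 39 genes were bright enough to be tested, and the only probe set of Gpx7 and the dimmer one of Mgst1 were not.

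In the treated group, GC1-Spg cells were transfected with 100 nM siRNA against mrhl, a noncoding RNA transcribed from within the gene Phkb. Control cells received 100 nM of a scrambled siRNA. Silencing was checked by quantitative PCR, per the series' design text, and that measurement was not analysed here. RNA was taken 44 h after transfection in both groups, and both received siRNA, so an effect of transfection shared by the groups does not show in their difference. Each group held 3 biological replicates, each on its own 1-colour Affymetrix array, with log2 expression values deposited for every probe set. The members were named with results of this same comparison known, and Gsta2 was set against its family because of its difference, so that difference is given as a description.

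Glutathione is a tripeptide that keeps the cell's thiols reduced. Glutathione transferases join it to reactive electrophiles, glutathione peroxidases use it to reduce peroxides, and the thioredoxin and peroxiredoxin enzymes form a second thiol system with the same purpose. Many of these genes are switched on by NRF2, the product of Nfe2l2, which binds the antioxidant response element in their promoters and is held down by KEAP1 until electrophiles modify it. Male germ cells depend on this defence because their DNA and membranes are easily oxidised.

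The array medians differed by at most 0.11 log2 units. The mean signal of the 18S control varied far more between arrays. It was 3.42, 3.37 and 5.72 on the mrhl siRNA arrays of number 1, 2 and 3, and 3.76, 6.50 and 5.52 on the scrambled siRNA arrays. Its bearing on the differences below was not tested. The 3′ minus 5′ signal of the beta-actin control, a measure of RNA integrity, ran from 0.38 to 0.45 log2 units after mrhl siRNA and from 0.42 to 0.63 after scrambled siRNA. Of 12 listed germ cell markers 11 had a probe set, and 9 of them lay above the log2 level of 3.62 under which probe sets were not tested, with averages of 5.15 to 5.29 after mrhl siRNA and 5.13 to 5.40 after scrambled siRNA. Dazl and Ddx4, 2 defining germ cell genes, lay below it. The level applies to the mean over all arrays. Kit, with means of 3.43 after mrhl siRNA and 3.82 after scrambled siRNA, and Stra8, with 3.91 and 3.48, lay close to that level. Uchl1 was the highest of the 9, with 7.50 and 7.49. Of 7 markers of fibroblasts and peritubular cells, Pdgfrb and Thy1 lay below that level, and the other 5 averaged 10.25 to 10.37 after mrhl siRNA and 9.79 to 10.40 after scrambled siRNA. Among these 5, Myh11 lay close to that level, with means of 3.96 after mrhl siRNA and 3.47 after scrambled siRNA. Of the 5 hepatocyte markers, listed because alpha class transferases are best known from liver, Alb and Cyp3a11 lay below 3.62, and the other 3 averaged 4.07 to 4.53 after mrhl siRNA and 4.11 to 4.42 after scrambled siRNA. All 8 Sertoli cell markers lay above 3.62, with averages of 6.60 to 6.81 after mrhl siRNA and 6.62 to 6.70 after scrambled siRNA. They ranged widely after mrhl siRNA, with means from 12.13 for Clu to 3.67 for Fshr, which lay close to that level. Clu and Wt1, at 10.84, lifted the average, and the next highest, Sox9, had 7.09. No ranking of cell types is read from these averages. Of 4 Leydig cell markers with a probe set, 3 lay above it. These averaged 4.35 to 5.06 after mrhl siRNA and 4.45 to 4.82 after scrambled siRNA. The part of other cell types in the differences below was not tested.

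Gsta2, an alpha class transferase that conjugates glutathione and also reduces lipid peroxides, showed the largest difference of the 39 genes. In these bulk cultures, a change in the mix of cells cannot be told apart from a change in RNA per cell. The log2 values of Gsta2 were 5.92, 6.10 and 6.01 on the 3 mrhl siRNA arrays, against 5.37, 4.96 and 4.98 on the scrambled siRNA arrays. The groups did not overlap, and the gap between the lowest treated and the highest control array was wider than the whole range of either group. The means were 6.01 ± 0.09 after mrhl siRNA and 5.10 ± 0.23 after scrambled siRNA (SD, n = 3 each), a log2 difference of 0.91 (standard error, SE, 0.164, 95% interval 0.52 to 1.29), or 1.88-fold. Equal replicate numbers were read as pairs of a treated and a control culture from the values, since the sample titles state no pairing. Within the pairs of number 1, 2 and 3 the differences were 0.55, 1.14 and 1.03. With groups that do not overlap, any pairing of these arrays gives 3 positive differences, so their common sign adds no evidence. The smallest of them was in the pair of number 1, whose control array was the highest of the 3.

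A probe set that the table pairs with 3 symbols, Gsta2, Gsta1 and Gm3776, is not a member because it cannot be given to 1 gene. On it the log2 values were 8.40, 8.95 and 8.67 after mrhl siRNA and 7.92, 7.75 and 7.48 after scrambled siRNA. Those groups did not overlap either. The log2 difference was 0.96 (SE 0.195), with 0.49, 1.20 and 1.19 in the 3 pairs, so the pair of number 1 was again the smallest. Which of the near-identical alpha class transcripts it read could not be told apart. Whether Gsta1 or Gm3776 shared the difference of Gsta2 is therefore not known.

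Gsta3 and Gsta4, the other alpha class members, did not share the difference in size. Gsta3 read 6.77, 6.71 and 6.50 after mrhl siRNA and 6.77, 6.60 and 6.19 after scrambled siRNA on the brighter of its probe sets. Its groups overlapped, the log2 difference was 0.14 (95% interval -0.30 to 0.58), and the dimmer probe set had 0.01 (95% interval -0.43 to 0.45). Gsta4, the transferase specialised for the lipid peroxidation product hydroxynonenal, read 11.58, 12.12 and 12.01 after mrhl siRNA and 11.64, 12.05 and 11.87 after scrambled siRNA. Its log2 difference was 0.05 (95% interval -0.41 to 0.50), and each pair differed by at most 0.13. The upper bounds of these 3 intervals lay below the 0.91 of Gsta2. That of the brighter probe set of Gsta3, 0.58, lay above 0.52, the lower bound of the interval of Gsta2, and those of the dimmer one and of Gsta4 lay below it. No test of the difference between the genes was run because the comparison had been chosen for it. For the same reason nothing is read from where these intervals lie.

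**Figure D1:**
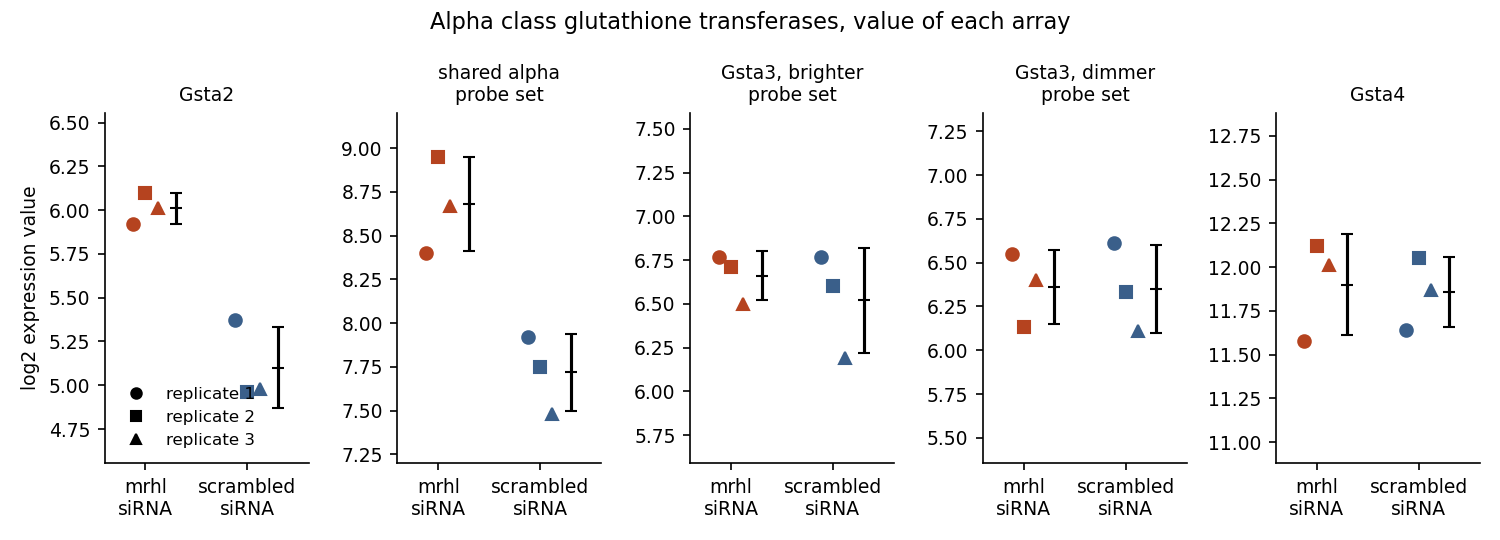
Log2 expression value of each array for the alpha class probe sets, with mrhl siRNA left of scrambled siRNA, a symbol for each replicate number, and the mean ± SD (n = 3) as a bar. Every axis spans 2 log2 units: the groups are apart for Gsta2 and for the probe set shared by several alpha genes, and overlap for both probe sets of Gsta3 and for Gsta4.

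The promoter of Gsta2 is printed because it is the gene with the largest difference. RefSeq's window of 250 bases before to 50 bases after the start, chr9:78347096-78347395 on the minus strand of GRCm38.p6, was searched on both strands for TGACNNNGC, the core letters of the antioxidant response element, and holds no match. This says only that these letters are not in this window.
Gsta2: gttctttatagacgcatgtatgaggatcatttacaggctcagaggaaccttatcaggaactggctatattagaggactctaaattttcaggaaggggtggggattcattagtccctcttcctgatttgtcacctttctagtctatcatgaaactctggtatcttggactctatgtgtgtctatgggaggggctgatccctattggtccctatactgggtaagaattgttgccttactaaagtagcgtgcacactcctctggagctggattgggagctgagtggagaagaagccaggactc

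Across the comparison as a whole, none of the 71 member probe sets passed an adjusted p of 0.05 (limma, Benjamini-Hochberg over all 33778 tested, lowest adjusted p = 0.965), beside 0% of all tested. Blocked by replicate number, the fit again called 0 of 71 (limma, lowest adjusted p = 0.487), beside 0%. At an unadjusted p under 0.05 there were 3 member probe sets, of Gsta2, Gclm and Keap1, or 4.23%, beside 3.44% of all tested. With the block the count was also 3, beside 10.1%. Groups did not overlap in 6 member probe sets, or 8.45%, beside 8.4% of all tested, which is near the background. Of these, 5 were higher after mrhl siRNA, 1 each of Gsta2, Gclm, Srxn1, Txn1 and Keap1, beside 2.58%, and 1 was lower, that of Gpx1, beside 5.82%. At least 1.5-fold higher were 3 member probe sets, 1 each of Gsta2, Sod1 and Keap1, or 4.23%, beside 1.57% of all tested, and 0 were at least 1.5-fold lower, beside 1.22%.

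Read through the brightest probe set of each gene, the 39 members had a median log2 difference of 0.05, with 23 above and 16 below 0, and all 14885 genes tested had a median of -0.04, with 6264 above and 8621 below 0. All but 4 members, 35 of 39 or 89.7%, lay within 0.25 of 0, against 77.3% of all genes. The exceptions were Gsta2, Gstm1, Gclc and Gclm, each above 0. In the pairs of number 1, 2 and 3 the members' median was -0.01, 0.07 and 0.07, against -0.02, -0.08 and -0.03 for all genes. In the same direction in all 3 pairs were 16 member probe sets on the higher side, or 22.5%, beside 14.1% of all tested, and 12 on the lower side, or 16.9%, beside 23.4%. The comparison itself chose the first of these genes, so nothing is read from these shares.

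**Figure D2:**
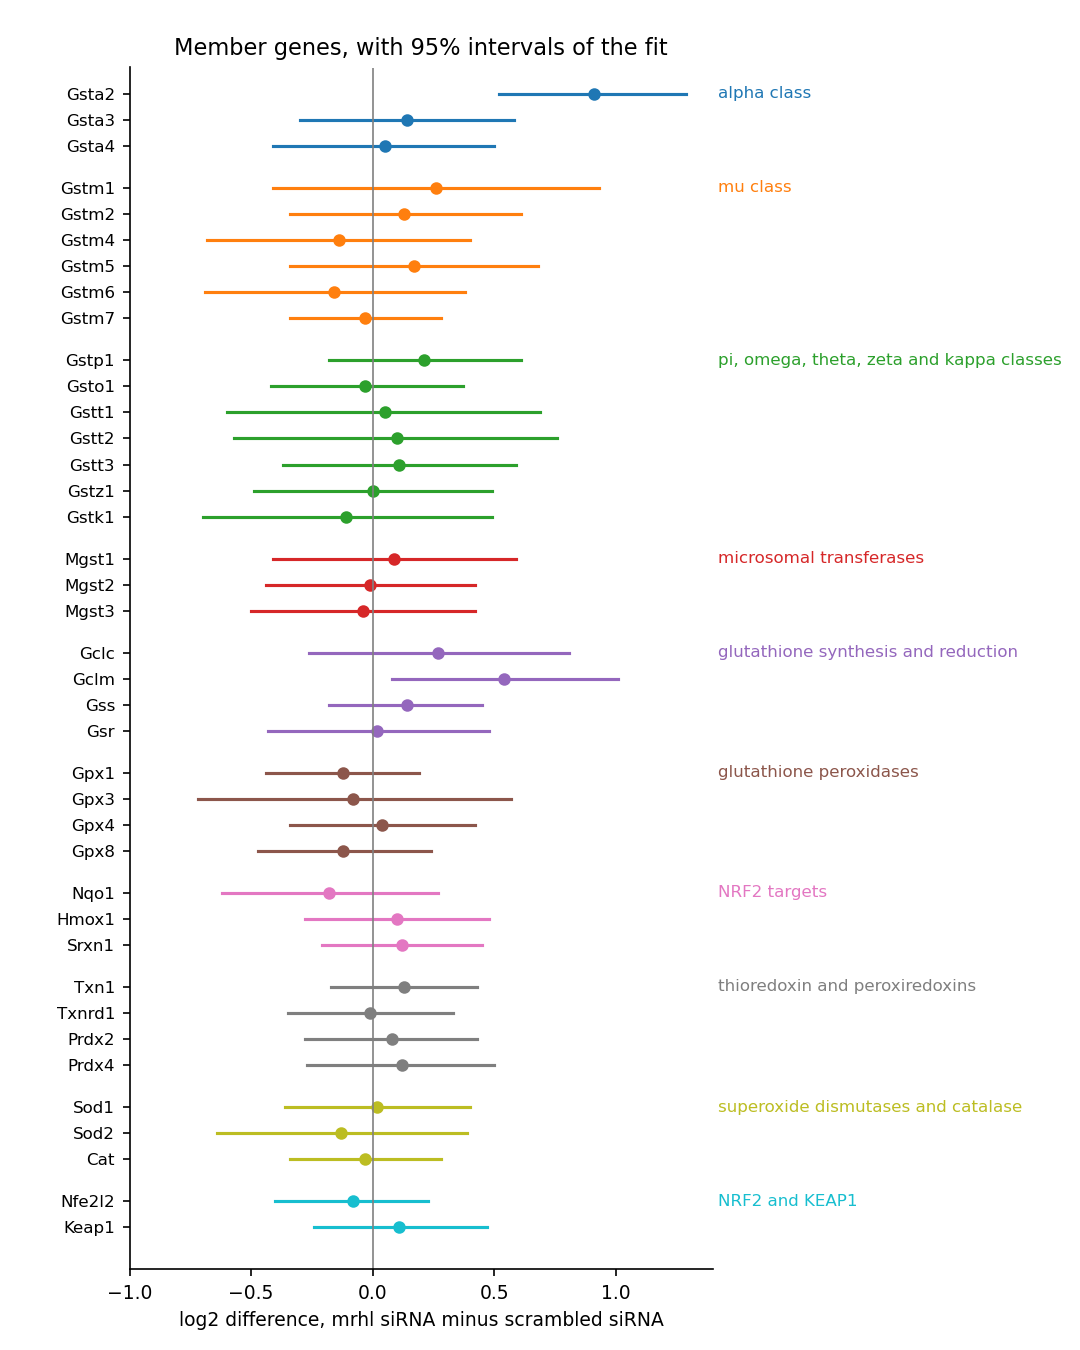
Log2 difference, mrhl siRNA minus scrambled siRNA, of the 39 member genes grouped by role, each read through its brightest probe set, with the 95% interval of the limma fit, not adjusted for the number of probe sets. The point of Gsta2 stands at 0.91 and that of Gclm at 0.54, and the other 37 lie between -0.18 and 0.27.

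The mu class transferases, whose genes lie together on chromosome 3, straddled 0, with 3 of 6 genes on either side and a median log2 difference of 0.05. Gstm1, the most widely studied of them, read 9.65, 9.23 and 8.89 after mrhl siRNA and 9.53, 8.71 and 8.73 after scrambled siRNA. All 4 probe sets of Gstm1 had positive values, from 0.15 to 0.26, while the read one had an SE of 0.286. The spread between cultures of one group was larger than the difference between groups. Gstm2 read 10.82, 10.62 and 10.38 after mrhl siRNA and 10.81, 10.23 and 10.37 after scrambled siRNA, so its log2 difference of 0.13 came almost wholly from the pair of number 2. Gstm6 had the lowest value of the class, -0.16 (SE 0.229), with 4.42, 3.78 and 3.95 after mrhl siRNA and 4.50, 3.89 and 4.23 after scrambled siRNA. Gstm5 had a log2 difference of 0.17, Gstm4 -0.14 and the brighter probe set of Gstm7 -0.03. Mu genes are close copies of each other, and a probe set of one can catch the transcript of another.

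In the pi, omega, theta, zeta and kappa classes, 4 of 7 genes were above 0 and all 7 within 0.25 of it. Gstp1, the pi class enzyme that is also known to restrain the stress kinase JNK, read 11.96, 11.79 and 11.75 after mrhl siRNA and 11.86, 11.37 and 11.63 after scrambled siRNA. It was higher in 3 of 3 pairs, by 0.10, 0.43 and 0.11, and the groups overlapped because the lowest treated array lay under the highest control array. The log2 difference of Gstp1 was 0.21 (SE 0.17, limma adjusted p = 0.965). Gstk1, the kappa class enzyme of mitochondria and peroxisomes, had the lowest value here, -0.11 (SE 0.255), with 7.34, 6.59 and 6.95 after mrhl siRNA and 7.49, 6.84 and 6.89 after scrambled siRNA. The theta class genes Gstt1, Gstt2 and Gstt3 had 0.05, 0.10 and 0.11. Gsto1, the omega class enzyme that reduces dehydroascorbate, had -0.03 on its brighter and -0.12 on its dimmer probe set, and Gstz1, which isomerises maleylacetoacetate in tyrosine breakdown, had -0.0.

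The microsomal transferases, membrane proteins of a separate family, differed little. Mgst1 read 12.36, 12.10 and 11.93 after mrhl siRNA and 12.36, 12.09 and 11.68 after scrambled siRNA, a log2 difference of 0.09 (SE 0.214). Mgst3, which also reduces lipid hydroperoxides, read 7.57, 7.83 and 8.07 after mrhl siRNA and 7.60, 8.09 and 7.91 after scrambled siRNA, a difference of -0.04 (SE 0.196). Mgst2, which can make leukotriene C, had -0.01. In Mgst1 and Mgst3 the lowest and the highest culture of a group were further apart than the group means.

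The 4 genes of glutathione synthesis and reduction all had positive values on their brightest probe set, from 0.02 to 0.54. Gclm, the modifier subunit of the glutamate-cysteine ligase that limits glutathione synthesis, had the second largest difference of the members. It read 9.38, 9.32 and 9.07 after mrhl siRNA, against 9.03, 8.73 and 8.39 after scrambled siRNA. The groups did not overlap, although only narrowly, and the pairs differed by 0.35, 0.59 and 0.68. Its means were 9.26 ± 0.16 after mrhl siRNA and 8.72 ± 0.32 after scrambled siRNA (SD, n = 3 each), a log2 difference of 0.54 (SE 0.198, 95% interval 0.08 to 1.01). Adjusted over all probe sets, Gclm did not pass (limma, adjusted p = 0.965). The dimmer probe set of Gclm went the other way, with 7.25, 7.17 and 6.89 after mrhl siRNA and 7.26, 7.53 and 6.83 after scrambled siRNA, a log2 difference of -0.10 (SE 0.213). With the mean of both probe sets the difference of Gclm was 0.22.

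The catalytic subunit Gclc showed the same split. Its brighter probe set read 8.26, 8.67 and 8.85 after mrhl siRNA and 8.24, 8.69 and 8.04 after scrambled siRNA, and its difference of 0.27 (SE 0.228) came from the pair of number 3 alone, at 0.81. The dimmer one had -0.23 (SE 0.195), lower in 3 of 3 pairs. Gss, the synthetase that adds glycine in the last step, had 0.14 on its brighter and -0.12 on its dimmer probe set. Gsr, which recycles oxidised glutathione, read 8.83, 9.30 and 8.98 after mrhl siRNA and 8.73, 9.23 and 9.08 after scrambled siRNA, with differences of 0.02 and -0.02 on its probe sets.

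The promoter of Gclm, the member with the second largest difference, holds a match to TGACNNNGC on the strand opposite to the gene, at position -134 from the start, in capitals in chr3:122245307-122245606 (plus strand, GRCm38.p6, RefSeq).
Gclm: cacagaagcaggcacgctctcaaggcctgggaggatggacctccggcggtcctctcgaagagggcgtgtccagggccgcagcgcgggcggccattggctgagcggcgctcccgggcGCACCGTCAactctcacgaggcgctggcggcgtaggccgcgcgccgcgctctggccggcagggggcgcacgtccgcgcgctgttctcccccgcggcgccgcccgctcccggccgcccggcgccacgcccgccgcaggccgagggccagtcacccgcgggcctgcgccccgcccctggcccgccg

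Of the 42 genes 36 had a promoter in the RefSeq table, and 10 of them, or 27.8%, held the motif in at least 1 window, against 14% of the 27025 genes in that table. With only the 250 bases before the start the shares were 25% and 11.5%. Counted by promoter in the full window, they were 20.4% of 49 and 12.4% of 32851. Members were named in part as NRF2 targets, so nothing is read from these shares. The matches, read in the direction of the motif with its fixed letters in capitals, are shown to let them be compared.
Gsta3: TGACattGC
Nfe2l2: TGACtccGC
Srxn1: TGACctaGC
Gstm5: TGACcacGC
Gstm7: TGACaaaGC
Gclm: TGACggtGC
Prdx1: TGACtcaGC
Mgst1: TGACcgtGC
Txnrd1: TGACaaaGC
Sod1: TGACcacGC
The log2 differences of the 9 of these genes with a probe set of their own ran from -0.08 for Nfe2l2 to 0.54 for Gclm. A match is a description of these letters and was not tested as a binding site.

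Among the glutathione peroxidases, 3 of the 4 tested genes were below 0, with a median log2 difference of -0.10. Gpx1, the abundant cytosolic peroxidase, read 11.05, 10.88 and 11.06 after mrhl siRNA and 11.06, 11.13 and 11.16 after scrambled siRNA. Its groups touched without overlapping, and its difference of -0.12 (SE 0.134) was smaller than its SE. Gpx4, which protects membranes from lipid peroxidation and is needed for sperm maturation, read 12.01, 11.72 and 11.71 after mrhl siRNA and 11.97, 11.64 and 11.72 after scrambled siRNA. The difference of Gpx4 was 0.04 on the brighter and -0.07 on the dimmer probe set. Gpx8 of the endoplasmic reticulum had -0.12 and the secreted Gpx3 -0.08, while Gpx7, which was too dim to be tested, read 3.77, 3.22 and 3.72 after mrhl siRNA and 2.92, 3.70 and 3.67 after scrambled siRNA.

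Among 3 classical NRF2 targets, 2 lay above 0 and 1 below it. Nqo1, the quinone reductase that is the textbook readout of NRF2, read 7.29, 7.70 and 7.75 after mrhl siRNA and 7.51, 7.92 and 7.84 after scrambled siRNA. It was lower in 3 of 3 pairs, by 0.21, 0.22 and 0.10 log2 units, and its difference was -0.18 (SE 0.19, 95% interval -0.62 to 0.27, limma adjusted p = 0.965). Hmox1, the inducible haem oxygenase, had 0.10 (95% interval -0.28 to 0.48), with only the pair of number 2 above 0. Srxn1, the sulfiredoxin that repairs overoxidised peroxiredoxins, read 9.08, 9.34 and 9.20 after mrhl siRNA and 9.10, 9.02 and 9.13 after scrambled siRNA. Of the 4 probe sets of Srxn1, 3 had values between 0.12 and 0.19 and the dimmest had -0.18, and the groups did not overlap on 1 of them, at 7.53, 7.61 and 7.53 after mrhl siRNA and 7.47, 7.35 and 7.48 after scrambled siRNA.

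Thioredoxin, the product of Txn1, read 12.58, 12.61 and 12.50 after mrhl siRNA and 12.48, 12.43 and 12.39 after scrambled siRNA on its brighter probe set. The groups lay just apart, and the difference of 0.13 (SE 0.129) was the same size as its SE. Txnrd1, which recharges thioredoxin, read 11.03, 11.13 and 11.06 after mrhl siRNA and 10.90, 11.23 and 11.11 after scrambled siRNA, a difference of -0.01 that turned positive with quantile normalization or with array medians set to 0. The other probe sets of Txnrd1 had 0.09 and 0.22. The peroxiredoxin genes Prdx2 and Prdx4 had 0.08 and 0.12 on their brightest probe sets, and 5 probe sets shared by Prdx1 and another symbol had values from 0.00 to 0.11.

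Superoxide dismutases turn superoxide into hydrogen peroxide, which catalase removes. Sod2, the mitochondrial enzyme, was below 0 on all 4 of its probe sets, from -0.33 to -0.13. Its brightest probe set read 11.12, 10.79 and 10.60 after mrhl siRNA and 11.33, 10.89 and 10.68 after scrambled siRNA, a difference of -0.13 (SE 0.22) with 3 of 3 pairs lower. The groups overlapped, and the culture of number 1 was the highest in both. On the probe set of Sod2 with -0.33 (SE 0.168, 95% interval -0.73 to 0.06), the values were 10.87, 10.51 and 10.74 after mrhl siRNA and 11.16, 11.13 and 10.82 after scrambled siRNA. None of the 4 passed (limma, adjusted p = 0.965 or more).

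The cytosolic enzyme Sod1 gave no common direction over its 5 probe sets, from -0.27 to 0.61. Its brightest probe set read 10.48, 10.77 and 10.93 after mrhl siRNA and 10.74, 10.75 and 10.62 after scrambled siRNA, a difference of 0.02 (SE 0.162). On the one with 0.61 (SE 0.509) the control of number 1 stood alone at 3.76, and the other 5 arrays lay between 5.01 and 6.16. Cat, which encodes catalase, had -0.03 and -0.14 on its probe sets.

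Nfe2l2 itself read 10.99, 11.08 and 11.11 after mrhl siRNA and 11.07, 11.24 and 11.13 after scrambled siRNA, a log2 difference of -0.08 (SE 0.134, 95% interval -0.40 to 0.23). Keap1 differed between its probe sets. The brighter read 8.36, 8.45 and 8.13 after mrhl siRNA and 8.31, 8.20 and 8.09 after scrambled siRNA, a difference of 0.11 (SE 0.152). On the dimmer, the values of Keap1 were 6.51, 6.76 and 7.00 after mrhl siRNA, against 6.06, 5.85 and 6.39 after scrambled siRNA. There the groups did not overlap, with a log2 difference of 0.66 (SE 0.199, 95% interval 0.19 to 1.12) that did not pass (limma, adjusted p = 0.965), and the mean of both probe sets was 0.39.

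Of the 20 member genes with several tested probe sets, 12 had values of both signs and 8 of a single sign. The 8 were Gsta3, Gstm1, Txn1 and Keap1 above 0, and Gsto1, Sod2, Cat and Nfe2l2 below 0.

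**Figure D3:**
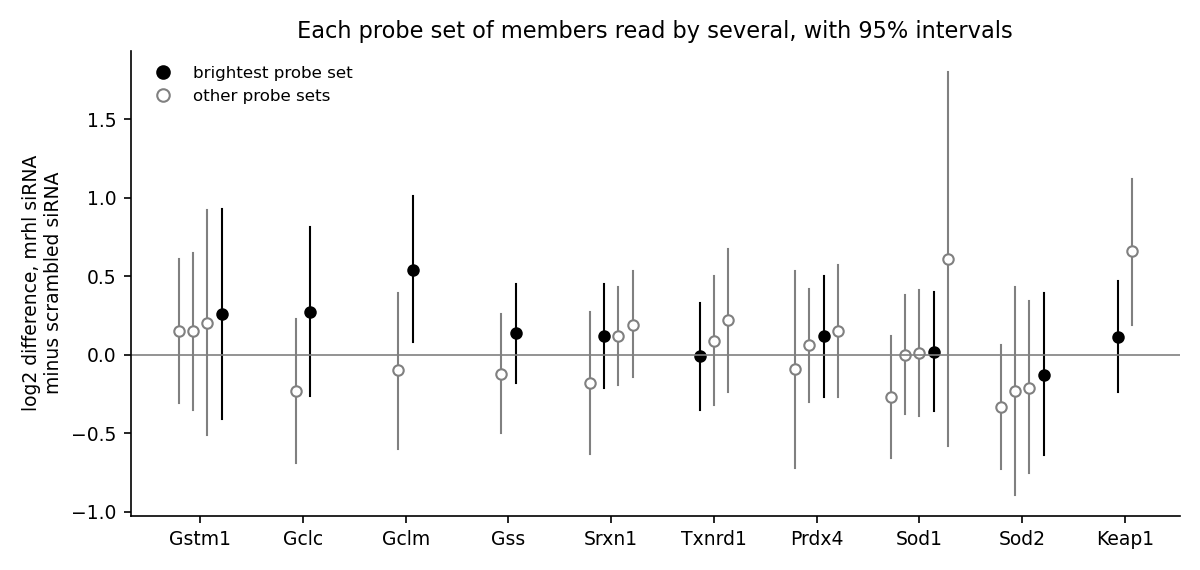
Log2 difference, mrhl siRNA minus scrambled siRNA, of every tested probe set of 10 member genes, with 95% intervals of the limma fit. Filled black points are the brightest probe set of a gene and open grey points the others: Gclc, Gclm and Gss have 1 probe set on each side of 0, and the 4 of Sod2 all lie below it.

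The replicate number also separated the cultures. That equal numbers in the groups come from the same experiment was inferred from the values and is not stated in the sample titles. Several transferases were high on both arrays of number 1, whatever the siRNA. Gstt1 read 8.66 on the mrhl siRNA array of number 1 against 8.03 and 8.11 on those of numbers 2 and 3, and 8.74 against 7.82 and 8.11 after scrambled siRNA. Gstk1 stood 0.57 above the mean of the other arrays of its group after mrhl siRNA and 0.62 above it after scrambled siRNA, and Gstm1 0.59 and 0.81 above it. These offsets exceeded the difference between the groups for all 3 genes.

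With a limit of 0.3 log2 units in both groups, chosen after the values were seen, number 1 lay above numbers 2 and 3 in 14 of 71 member probe sets, or 19.7%, beside 7.89% of all tested. By gene these were 11 members, of which 10 were transferases out of 19 tested: Gstm1, Gstm2, Gstm5, Gstm6, Gstt1, Gstt2, Gstt3, Gstz1, Gstk1 and Mgst1. The eleventh was Sod2, and the share of all genes was 9.38%. Number 1 lay below the others by that limit in 6 member probe sets, or 8.45%, beside 10.5% of all tested, and by gene in Gsta4, Mgst3, Gsr and Nqo1. Gsta2 did neither, with -0.14 after mrhl siRNA and 0.39 after scrambled siRNA. These shares are descriptions, since the genes were read from the same cultures and arrays.

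**Figure D4:**
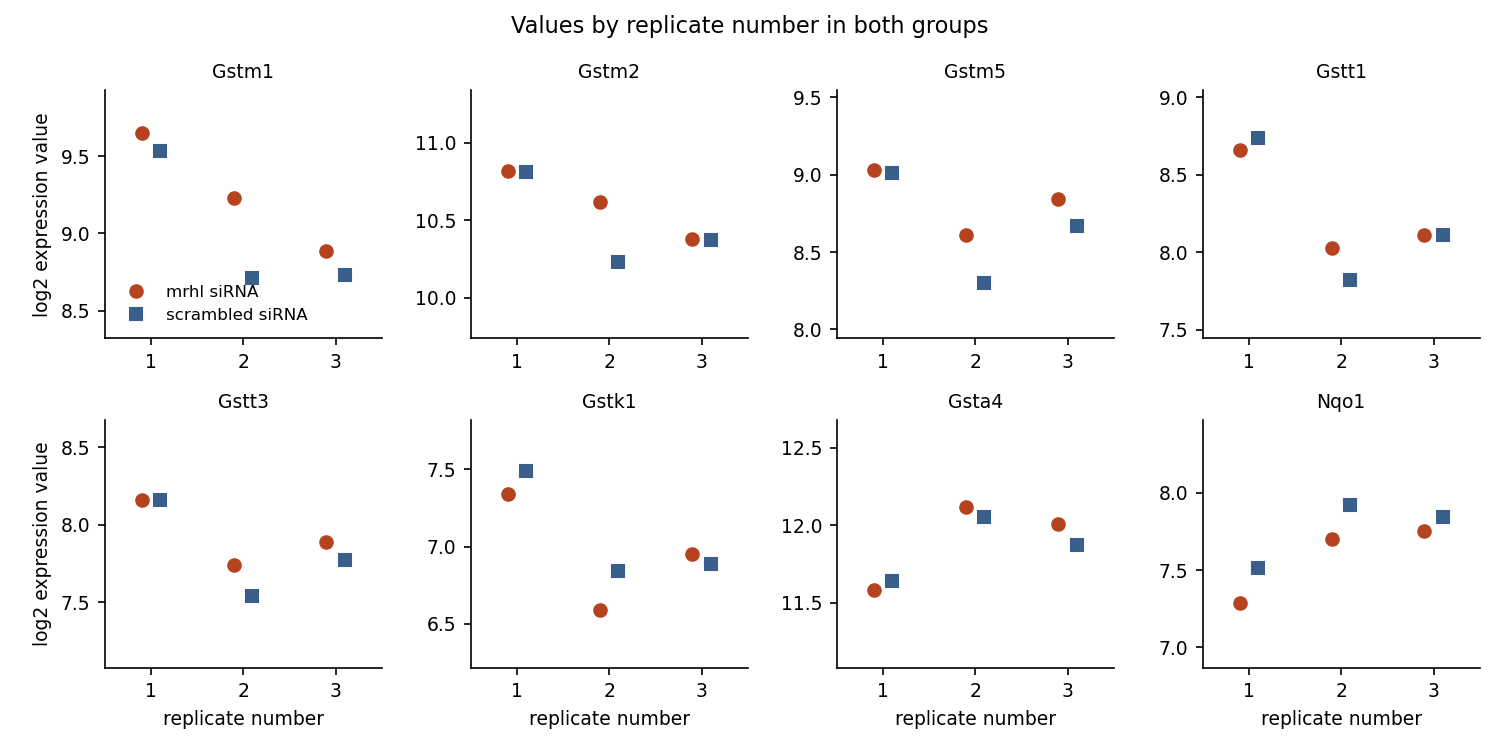
Log2 expression value by replicate number, with mrhl siRNA as circles left of scrambled siRNA as squares, for 8 member genes. Every axis spans 1.6 log2 units: Gstm1, Gstm2, Gstm5, Gstt1, Gstt3 and Gstk1 are highest at number 1 in both groups, and Gsta4 and Nqo1 lowest.

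Beyond the members, 61 other genes of glutathione metabolism and of the NRF2 response were listed by function, of which 50 were tested. None passed in either direction (limma, 0 higher and 0 lower), their median log2 difference was -0.03, and 19 lay above and 31 below 0. The highest were Aldh3a1, an aldehyde dehydrogenase, with 0.41 (SE 0.304), and Blvrb, a biliverdin reductase, with 0.39 (SE 0.191). The lowest were Ltc4s, the leukotriene C synthase of the microsomal transferase family, with -0.53 (SE 0.162), and Sesn2, a stress-induced sestrin, with -0.42 (SE 0.301) on its brighter and 0.18 on its dimmer probe set. Blvrb read 8.77, 8.56 and 8.75 after mrhl siRNA and 8.50, 7.94 and 8.48 after scrambled siRNA, without overlap, and Ltc4s read 4.43, 4.13 and 4.37 against 5.04, 4.75 and 4.72, also without overlap. Of the 50 genes, 3 were higher and 2 lower without overlap, beside 2.58% and 5.82% of all tested probe sets. Those shares are over probe sets, dim ones included, and the share over genes was not counted, so nothing is read from the comparison.

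Slc7a11, the cystine carrier that feeds glutathione synthesis and a known NRF2 target, was singled out after its values were seen. Its brighter probe set read 4.78, 5.45 and 5.79 after mrhl siRNA and 5.01, 6.10 and 6.17 after scrambled siRNA, a log2 difference of -0.42 (SE 0.374). The dimmer probe set of Slc7a11 read 4.67, 5.16 and 5.04 after mrhl siRNA and 5.42, 6.29 and 6.06 after scrambled siRNA, without overlap, at -0.97 (SE 0.253, limma adjusted p = 0.965). Slc7a11 was lower in all 3 pairs on both probe sets, which on the dimmer one follows from groups without overlap. Counted singly, 23.4% of all tested probe sets were lower in all 3 pairs. The share of genes with several such probe sets was not counted. Gclm was higher in all 3 pairs on its brighter probe set, as were 14.1% of all tested. For Gclm this also follows from groups without overlap. Its dimmer probe set had -0.10. A difference between Slc7a11 and Gclm was not tested.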

How the data were processed

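RNA of 6 cultures was measured, 3 per group, with groups and replicate numbers taken from the sample titles. The deposited values are log2 expression values, 1 for each probe set on each array. Per the submitters' processing notes the authors used GCOS and PLIER. Versions, settings and any normalization are not stated in the labels. That the scale is log2 was taken from the values' range. They were used as deposited, without 64 control rows.

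Members and lists were chosen with earlier results of these data known. Genes were named through the platform's probe table, in which 34945 probe sets have 1 symbol, 932 several and 9160 none. Probe sets with a mean under the 25th percentile, 3.62, were dropped, so 33778 were tested. Each gene is represented by its brightest tested probe set. The group difference came from lmFit and eBayes of limma 3.58.1, run in R 4.3.3, and p-values were adjusted by Benjamini-Hochberg over every tested probe set, with a threshold of 0.05. Precision is limited by how few arrays there are, with a median SE of 0.187 for the members' log2 differences. The fit was also run on simulated data, whose arrays were independent and held no pairs by replicate number. That run required only that the median estimates came near the differences put in.

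Whether replicate numbers pair the cultures was checked from how their deviations about each group mean correlate: equal numbers gave 0.534, 0.201 and 0.567, all over the limit of 0.1, so they were read as pairs. The design text speaks of 3 independent experiments. The alternatives were no filter or one at the median, quantile normalization or array medians set to 0, each array left out, averaging the probe sets of a gene, the replicate block, trended and robust variance and array weights; the block with trended and robust variance, and both arrays of number 1 left out, were added after seeing the data. The offsets planned for linear values were not run, since the values are log2. Every member may be named, and array values are given for the alpha class and, in each role, for the genes with the highest and the lowest difference and the brightest probe set; Gstm7, Gpx7, Gstt1 and single probe sets beyond these were chosen after their values were seen. Promoters are RefSeq's of GRCm38.p6. Figures were drawn with matplotlib 3.10.9.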

Additional observations from a re-analysis of the deposited data

How the results depend on the processing

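The count of member probe sets past an adjusted p of 0.05 was 0 in every one of the alternatives run, with the lowest adjusted p of a member, 0.195, for both Gsta2 and Gclm with the replicate block and trended, robust variance (limma). The replicate block alone left the count at 0 (limma, lowest adjusted p = 0.487) and changed no call. The log2 difference of Gsta2 stayed between 0.84 and 1.08 over all alternatives, and was 1.08 without both arrays of number 1, chosen after seeing the data. The filters, the replicate block and the variance settings leave a log2 difference unchanged by construction, here at 0.91. Member probe sets whose groups do not overlap numbered 6 with all arrays, 4 with quantile normalization or with array medians set to 0, and 7 to 19 when a single array was left out. There were 12 without mrhl siRNA replicate 1, 11 without mrhl siRNA replicate 3, 19 without scrambled siRNA replicate 1, 14 without scrambled siRNA replicate 3 and 27 without both arrays of number 1, where groups of fewer arrays overlap less often by construction. The members' median log2 difference of 0.046 ran from 0.009 to 0.136 when arrays were left out, with 0.136 without scrambled siRNA replicate 1 and 0.105 without both arrays of number 1. Of 22 named genes 12 kept their sign under every alternative run, Gsta2 and Gclm among them, and 10 changed it under at least 1: Gsta3, Gsta4, Gstk1, Mgst1, Mgst3, Gsr, Gpx4, Txnrd1, Sod1 and Sod2. For Gsta2 and Gclm, whose groups do not overlap, leaving out arrays could not change the sign. Their kept sign is therefore no support for their differences. Reading each gene by the mean of its probe sets gave Gclm 0.22 and Keap1 0.39, and the cause of the disagreement between probe sets was not tested.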
